A study of Mus musculus with 30 samples.

Results

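The glucocorticoid receptor and 9 of its target genes were followed in mouse lumbar dorsal root ganglia after chemotherapy drugs. The members are the rows of the deposited table named Nr3c1, Fkbp5, Tsc22d3, Sgk1, Zbtb16, Klf9, Dusp1, Mt1, Mt2 and Pdk4, which are 10 of 56686 genes. All 10 were among the 25434 genes that passed the filter on low values, a level of at least 1 TPM in at least 3 libraries. TPM, the share of a transcript among all transcripts scaled by its length, is a level that can be compared between genes. Male wild type C57BL/6J mice received CVAD, cyclophosphamide, vincristine, doxorubicin, dexamethasone or saline. CVAD is a combination regimen named for cyclophosphamide, vincristine, doxorubicin (Adriamycin) and dexamethasone. Day 2 had CVAD, cyclophosphamide, dexamethasone and saline groups, and day 8 had CVAD, cyclophosphamide, vincristine, doxorubicin, dexamethasone and saline groups. Each of these 10 groups has 3 libraries, for 30 in all. Ganglia L3 to L5 of both sides were taken after perfusion with RNAlater. Doses, the schedule, the hour of collection, and whether a library is 1 animal or a pool are not given in the sources used here, so p-values measure the spread between libraries only.

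Glucocorticoids such as corticosterone, the main adrenal glucocorticoid of the mouse, and dexamethasone, a synthetic agonist, enter cells and bind the receptor Nr3c1. The receptor is held in the cytoplasm by heat shock proteins and immunophilins, moves to the nucleus on binding, and activates genes through glucocorticoid response elements. Several of those genes, such as Fkbp5, limit the receptor in turn. In sensory ganglia neurons, satellite glia and Schwann cells all express the receptor, and corticosterone in blood varies over the day and with stress.

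Marker genes of the tissue were present in every library. The summed level of 6 sensory neuron markers was 1265 to 1779 TPM over the libraries, that of 4 satellite glia markers 518 to 677 TPM and that of 5 Schwann cell markers 1187 to 1722 TPM. Genes of neighbouring tissue varied more. The 11 skeletal muscle markers summed to 9.68 to 1205 TPM, with every one above 0 in some library. The neutrophil markers summed to 57.0 to 333 TPM, and 2 of these 8, S100a8 and S100a9, were listed at 0 throughout. All 37 mitochondrial genes were also listed at 0 in every library, so a 0 in this table need not mean that no RNA was present. In whole ganglia, fewer cells of a type and less RNA per cell cannot be told apart.

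No member passed the threshold in any comparison. Across 15 comparisons and 10 members, 0 of 150 tests in limma had a Benjamini-Hochberg adjusted p under 0.05, and the smallest adjusted p was 0.21. The background was as sparse. The share of all tested genes that passed was 0.0432% for CVAD against saline on day 2, 0.0118% for cyclophosphamide on day 2, 0.00786% for cyclophosphamide on day 8, and 0.00393% for dexamethasone on day 2. It was 0.0826% for the difference in the CVAD response between days, 0.00393% for saline on day 8 against day 2, and 0% in the other 9 comparisons. At an unadjusted p under 0.05 limma gave 17 of the 150 tests, spread over 8 comparisons, of which 13 were of Mt1 or Mt2.

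Those 17 tests are read against the share of all genes with an unadjusted p under 0.05 in the same comparison. Dexamethasone against saline had 2 of 10 members at that level on day 2, against 5.37% of all genes, and 0 of 10 on day 8, against 3.26%. CVAD against saline had 0 of 10 on day 2, against 8.19%, and 2 of 10 on day 8, against 5.98%. Cyclophosphamide against saline had 2 of 10 on day 2, against 7.51%, and 0 of 10 on day 8, against 5.76%. Vincristine had 1 of 10, against 3.44%, and doxorubicin 0 of 10, against 3.35%. CVAD against dexamethasone had 1 of 10 on day 2, against 3.66%, and 5 of 10 on day 8, against 4.94%. Groups with dexamethasone against groups without had 0 of 10 on both days, against 4.32% on day 2 and 3.76% on day 8. The change of the dexamethasone response between days had 0 of 10, against 4.92%, that of the CVAD response 2 of 10, against 8.63%, and saline on day 8 against day 2 had 2 of 10, against 6.93%. Members share regulation and libraries, so these counts are not independent of each other.

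**Figure D1:**
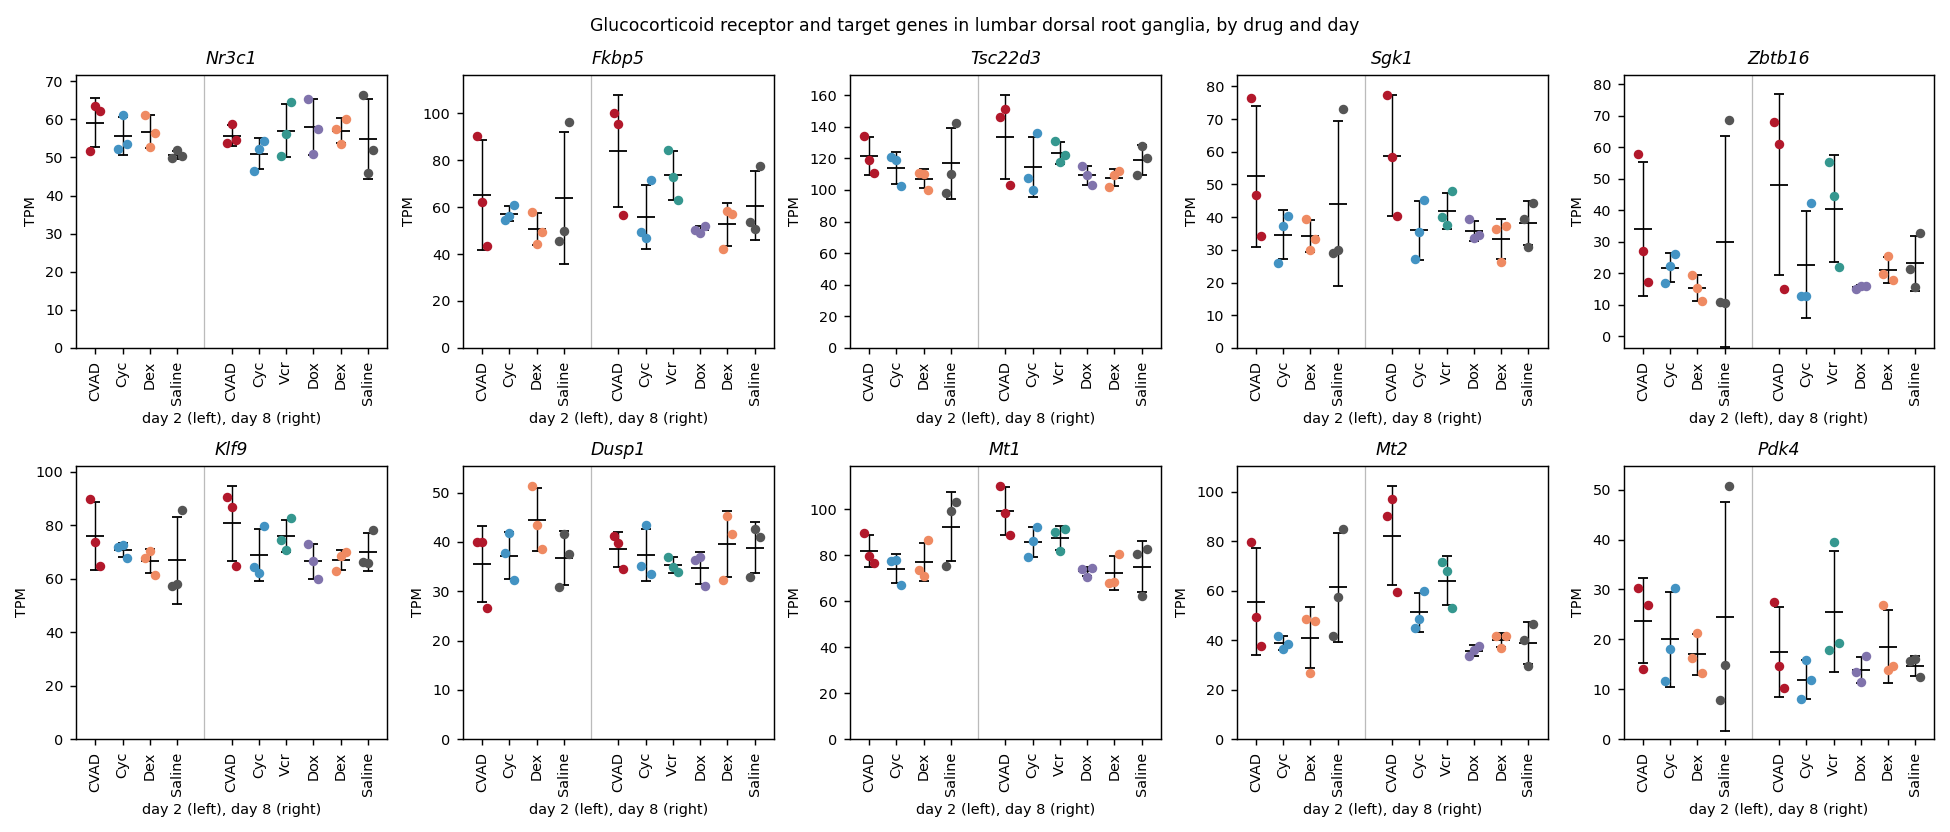
Levels of the 10 genes (TPM) in each library, by drug on day 2 (left of the grey line) and day 8 (right of it). Points are the 3 libraries of a group, the long tick is the mean and the bars are the SD. Zbtb16, Fkbp5, Sgk1 and Mt2 have single libraries far above the others of their group in several groups, saline included, while Nr3c1 stays between 45.9 and 66.5 TPM.

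Nr3c1 (ENSMUSG00000024431, chromosome 18) encodes the receptor itself. Its mean over all libraries was 55.6 TPM, higher than 81.6% of the tested genes, and its range was narrow, 45.9 to 66.5 TPM. On day 2 it was at 61.2, 52.7 and 56.5 TPM in dexamethasone ganglia, against 49.8, 51.9 and 50.4 TPM in saline ganglia. All 3 dexamethasone values lay above all 3 saline values, as they did for 7.03% of all genes, while 1.88% lay wholly below. The log2 fold change was 0.16 with a 95% interval of -0.08 to 0.40. Cyclophosphamide on day 2, at 52.2, 61.3 and 53.5 TPM, also lay wholly above saline, as did 8.52% of all genes, with 2.95% wholly below. The median-ratio scale factor of a library, its typical level over genes, was 0.9067 in the first saline library of day 2. It was 1.007 in the second dexamethasone and 1.006 in the first cyclophosphamide library of that day. Divided by these factors, that saline library lies above both, so neither separation holds after the scaling. On day 8 dexamethasone ganglia averaged 57.0 ± 3.28 TPM and saline ganglia 54.8 ± 10.5 TPM (SD, n = 3 each), with overlapping libraries and a log2 fold change of 0.07 (95% interval -0.17 to 0.31). CVAD averaged 59.1 ± 6.45 TPM against 50.7 ± 1.09 TPM in saline on day 2, and 55.7 ± 2.69 TPM against 54.8 ± 10.5 TPM on day 8, and neither difference passed.

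Fkbp5 (ENSMUSG00000024222, chromosome 17: 28618068 to 28736501, minus strand) encodes the immunophilin FKBP51, which binds the receptor complex with Hsp90 and lowers its affinity for hormone. On day 2 it was at 58.1, 44.4 and 49.6 TPM in dexamethasone ganglia, against 45.5, 49.8 and 96.5 TPM in saline ganglia. On day 8 it was at 42.1, 58.6 and 57.2 TPM in dexamethasone ganglia, against 53.7, 50.6 and 77.7 TPM in saline ganglia. The groups overlapped on both days, and the highest library of each comparison was the third saline replicate. The log2 fold change of dexamethasone over saline was -0.25 on day 2 (95% interval -0.79 to 0.28) and -0.19 on day 8 (95% interval -0.72 to 0.34). On the (TPM + 1) scale the upper ends of these intervals correspond to 1.21-fold on day 2 and 1.27-fold on day 8. Without the third saline replicate the day 2 value was 0.08.

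In CVAD ganglia Fkbp5 was at 90.2, 62.0 and 43.4 TPM on day 2, and at 100.3, 95.3 and 56.8 TPM on day 8. The saline values of the same days are those given above, so on each day at least 1 CVAD library lay inside the saline range and at least 1 saline library inside the CVAD range. The log2 fold change of CVAD over saline was 0.05 (95% interval -0.48 to 0.58) on day 2 and 0.45 (95% interval -0.08 to 0.98) on day 8. Against dexamethasone on day 8 it was 0.64 ± 0.26 (SE, limma adjusted p = 0.903), with the third CVAD library inside the dexamethasone range.

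Tsc22d3 (ENSMUSG00000031431, chromosome X), which encodes the leucine zipper protein GILZ, an inhibitor of NF-kappaB and AP-1, had the highest mean of the 10, 116.7 TPM. It was at 110.8, 110.2 and 100.1 TPM in dexamethasone ganglia on day 2, against 98.3, 110.3 and 142.1 TPM in saline ganglia. On day 8 it was at 101.7, 109.7 and 112.0 TPM in dexamethasone ganglia, against 109.3, 128.1 and 120.3 TPM in saline ganglia. The groups overlapped on both days. The log2 fold changes were -0.11 (95% interval -0.38 to 0.16) and -0.14 (95% interval -0.42 to 0.13). CVAD ganglia on day 8 had 146.3, 151.6 and 103.0 TPM, so that 2 libraries lay above every saline library and the other below every one.

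Sgk1 (ENSMUSG00000019970, chromosome 10: 21758083 to 21875802, plus strand) encodes a kinase that raises the surface level and activity of ion channels and transporters. Among the RefSeq promoters in build GRCm38.p6, 1 of the 6 Sgk1 starts has a complete glucocorticoid response element in the 250 bases before it. It is shown because it is the only such element among the members' promoters searched. The element is AGAACA, any 3 bases, then TGTTCT, which reads the same on both strands, and 3 of 32851 promoter windows of the same length (0.00913%) hold it. Capitals mark it in the sequence below, from chr10:21993640-21993889 on the plus strand, where it takes up bases 189 to 175 before the start. These letters are a description of the sequence and say nothing of binding in these ganglia.
Sgk1 promoter: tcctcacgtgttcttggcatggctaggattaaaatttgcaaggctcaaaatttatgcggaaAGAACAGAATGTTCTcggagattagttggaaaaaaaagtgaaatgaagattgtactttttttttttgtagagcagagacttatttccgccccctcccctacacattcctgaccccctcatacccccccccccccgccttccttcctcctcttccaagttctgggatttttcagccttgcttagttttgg

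Sgk1 was at 39.5, 29.99 and 33.2 TPM in dexamethasone ganglia on day 2, against 29.04, 30.01 and 73.2 TPM in saline ganglia. On day 8 it was at 36.3, 26.1 and 37.2 TPM in dexamethasone ganglia, against 39.5, 30.8 and 44.3 TPM in saline ganglia. The log2 fold changes were -0.23 (95% interval -0.84 to 0.38) and -0.20 (95% interval -0.81 to 0.41), and the groups overlapped. CVAD ganglia had 76.4, 46.8 and 34.2 TPM on day 2. On day 8 they had 77.4, 58.5 and 40.3 TPM, all above the 3 dexamethasone libraries, a separation that 6.78% of all genes showed. That difference was 0.77 ± 0.30 in log2 (SE, limma adjusted p = 0.863). Against saline on day 8 it was 0.58 (95% interval -0.03 to 1.18), with the third CVAD library inside the saline range.

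Zbtb16 (ENSMUSG00000066687, chromosome 9: 48565597 to 48747522, minus strand) encodes the transcriptional repressor PLZF. It was the most variable member: its highest library, at 68.6 TPM, was 6.48 times its lowest, at 10.6 TPM, and both were saline libraries of day 2. On day 2 it was at 58.0, 27.2 and 17.2 TPM in CVAD ganglia, 16.99, 22.3 and 26.01 TPM in cyclophosphamide ganglia and 19.4, 15.3 and 11.3 TPM in dexamethasone ganglia, against 10.9, 10.6 and 68.6 TPM in saline ganglia. On day 8 it was at 68.2, 61.1 and 15.1 TPM in CVAD ganglia, 12.9, 12.8 and 42.4 TPM in cyclophosphamide ganglia and 55.2, 44.6 and 21.8 TPM in vincristine ganglia. Doxorubicin ganglia had 15.1, 15.9 and 16.02 TPM and dexamethasone ganglia 19.7, 25.5 and 17.9 TPM, against 21.4, 15.6 and 32.7 TPM in saline ganglia on that day. High libraries, above 30 TPM, thus stood beside low ones in 6 groups, with and without dexamethasone, and in neither dexamethasone group. Dexamethasone over saline gave -0.41 on day 2 (95% interval -1.62 to 0.80), which became 0.45 without the third saline replicate, and -0.09 on day 8 (95% interval -1.30 to 1.12). CVAD over saline gave 0.82 on day 8 (95% interval -0.39 to 2.03), and 0.448 to 1.498 with 1 library left out, lowest without the first and highest without the third CVAD replicate.

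Klf9 (ENSMUSG00000033863, chromosome 19), a Krüppel-like transcription factor, ranged over 57.1 to 90.6 TPM. It averaged 66.5 ± 4.54 TPM in dexamethasone ganglia and 66.9 ± 16.2 TPM in saline ganglia on day 2, and 67.1 ± 3.73 TPM in dexamethasone ganglia and 70.1 ± 7.10 TPM in saline ganglia on day 8 (SD, n = 3 each). CVAD ganglia averaged 76.0 ± 12.7 TPM on day 2 and 80.7 ± 13.9 TPM on day 8. None of these differences exceeded the spread of the libraries. Dusp1 (ENSMUSG00000024190, chromosome 17), a phosphatase that switches off MAP kinases, averaged 44.5 ± 6.39 TPM in dexamethasone ganglia and 36.7 ± 5.43 TPM in saline ganglia on day 2 (SD, n = 3 each). Its libraries were 51.3, 43.5 and 38.7 TPM with dexamethasone, against 30.9, 41.6 and 37.6 TPM with saline, and the groups overlapped (log2 fold change 0.27, 95% interval -0.05 to 0.59). CVAD ganglia of that day had 40.1, 39.9 and 26.5 TPM, 0.33 lower in log2 than dexamethasone (log2 fold change -0.33 ± 0.16 (SE), limma adjusted p = 1).

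**Figure D2:**
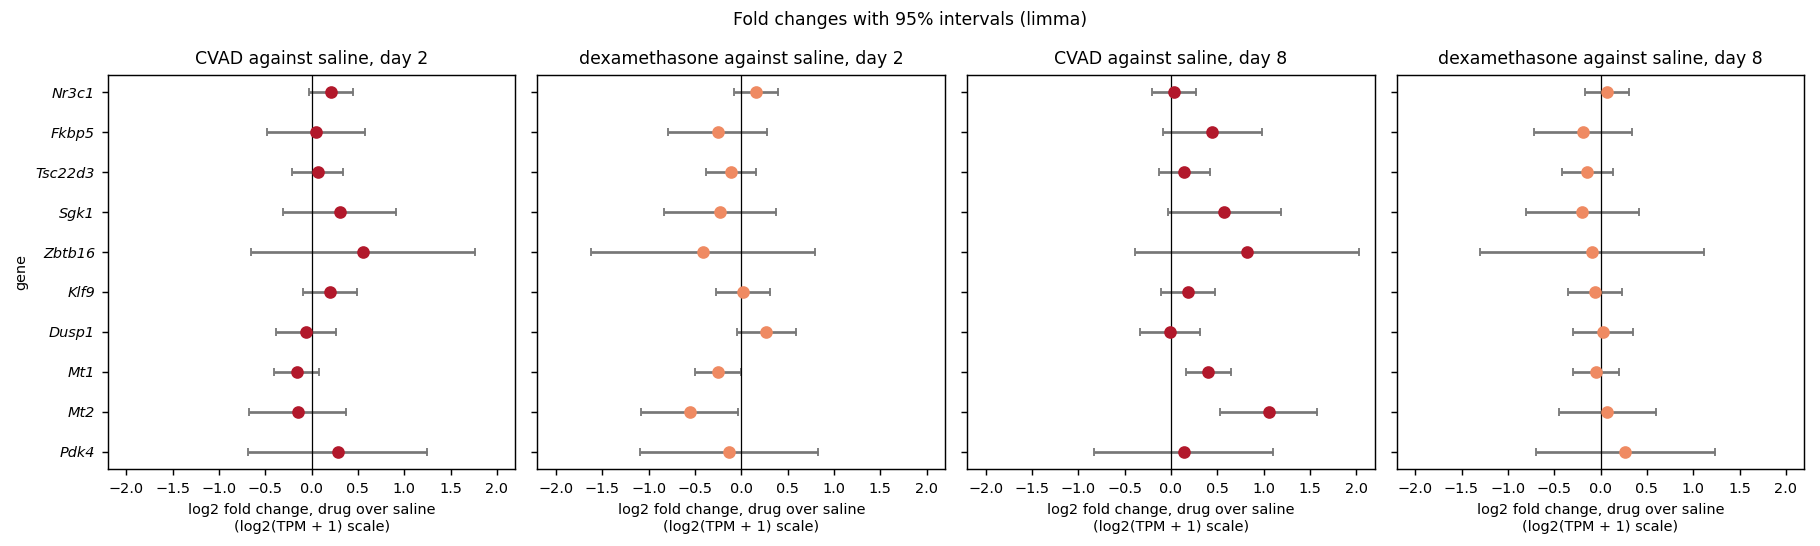
Log2 fold changes of the 10 genes, drug over saline, for CVAD and for dexamethasone on day 2 and day 8. Points are limma estimates on the log2(TPM + 1) scale and bars their 95% intervals, not adjusted for the number of genes. All 10 dexamethasone intervals of day 8 include 0, those of Mt1 (-0.49 to -0.01) and Mt2 (-1.08 to -0.03) on day 2 do not, and on day 8 the CVAD intervals of Mt1 (0.16 to 0.65) and Mt2 (0.53 to 1.58) do not.

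The metallothioneins gave the largest differences from saline among the members relative to their error. Mt1 (ENSMUSG00000031765, chromosome 8: 94905710 to 94906955, plus strand) and Mt2 (ENSMUSG00000031762, chromosome 8: 94899292 to 94900196, plus strand) are neighbouring genes that encode small proteins binding zinc and copper. They are induced by metals through the factor MTF1 and by glucocorticoids. Being paralogs of similar sequence, they may share reads, and how the counting divided such reads is not given in the sources used here.

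The RefSeq promoters of the pair in GRCm38.p6 are shown because Mt1 and Mt2 varied together and the best known inducers of the pair act on short motifs. Capitals mark the core of the metal response element, TGCACNC or TGCGCNC on either strand, and a looser receptor palindrome, GNACANNNTGTNC. The Mt2 window, chr8:94172368-94172617 on the plus strand, has 3 metal cores, at bases 223 to 217, 128 to 122 and 50 to 44 before the start. The Mt1 window, chr8:94178839-94179088 on the plus strand, has 1 palindrome at bases 94 to 82 and 1 metal core at bases 23 to 17.
Mt2 promoter: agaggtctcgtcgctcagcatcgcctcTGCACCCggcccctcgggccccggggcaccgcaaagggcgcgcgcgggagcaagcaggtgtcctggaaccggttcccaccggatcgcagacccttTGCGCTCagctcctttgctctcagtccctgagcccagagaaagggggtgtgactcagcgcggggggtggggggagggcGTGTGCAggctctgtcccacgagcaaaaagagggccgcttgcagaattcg
Mt1 promoter: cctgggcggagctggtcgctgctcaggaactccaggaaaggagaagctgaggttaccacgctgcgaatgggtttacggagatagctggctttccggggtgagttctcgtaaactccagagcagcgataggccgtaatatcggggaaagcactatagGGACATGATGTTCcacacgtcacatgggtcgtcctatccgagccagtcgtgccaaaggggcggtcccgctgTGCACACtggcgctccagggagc
The metal core stands in 21.4% of the 32851 windows and the looser palindrome, with which no metal core overlaps here, in 0.387%. The looser palindrome also lies within the complete element of Sgk1. Windows of 8 of the 10 members, 15 in all, were searched, and a gene can have starts that these windows do not cover.

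On day 8 Mt2 was at 90.4, 97.0 and 59.5 TPM in CVAD ganglia and at 71.6, 67.8 and 52.9 TPM in vincristine ganglia, against 40.2, 29.7 and 46.5 TPM in saline ganglia. All 3 libraries of both drug groups lay above all 3 saline libraries, a separation shown by 5.41% of all genes for CVAD and by 3.46% for vincristine. The log2 fold change was 1.06 ± 0.25 for CVAD (SE, limma adjusted p = 0.225) and 0.72 ± 0.25 for vincristine (SE, limma adjusted p = 1). Cyclophosphamide ganglia, at 45.1, 48.7 and 60.0 TPM, overlapped saline with a log2 fold change of 0.41 (95% interval -0.12 to 0.93). Doxorubicin ganglia, at 33.5, 36.0 and 37.8 TPM, and dexamethasone ganglia, at 41.9, 36.9 and 41.9 TPM, lay within the saline range. Their log2 fold changes were -0.09 (95% interval -0.62 to 0.43) and 0.07 (95% interval -0.45 to 0.60).

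Mt1 had a smaller spread. It was at 110.1, 98.5 and 89.0 TPM in CVAD ganglia on day 8, against 80.6, 62.1 and 82.5 TPM in saline ganglia, with no overlap. The log2 fold change was 0.40 ± 0.12 (SE, limma adjusted p = 0.443). Vincristine ganglia, at 89.9, 81.7 and 91.3 TPM, overlapped saline. Both metallothioneins also lay wholly above dexamethasone in CVAD ganglia on day 8, by 0.45 ± 0.12 for Mt1 and 0.99 ± 0.25 for Mt2 in log2 (SE, limma adjusted p = 0.493 for both).

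On day 2 no drug group had a mean of Mt2 above saline. Mt2 was at 79.5, 49.5 and 37.5 TPM in CVAD ganglia, 41.7, 36.3 and 38.5 TPM in cyclophosphamide ganglia and 48.7, 26.8 and 47.7 TPM in dexamethasone ganglia, against 41.6, 57.5 and 85.2 TPM in saline ganglia. All 3 drug groups overlapped saline. The log2 fold change was -0.56 ± 0.25 for dexamethasone (SE, limma adjusted p = 0.919), and -0.59 ± 0.25 for cyclophosphamide (SE, limma adjusted p = 0.611). These values of Mt2 were -0.295 and -0.327 without the third saline replicate. For Mt1 the log2 fold change of dexamethasone was -0.25 ± 0.12 (SE, limma adjusted p = 0.919), and -0.166 without that replicate. Spinal cord markers were also high in that replicate, with a sum of 73.4 TPM, the highest of all libraries. They summed to 1.60 to 14.2 TPM in dexamethasone ganglia and 2.64 to 12.04 TPM in cyclophosphamide ganglia, against 9.26 to 73.4 TPM in saline ganglia on day 2. All 5 tested were lower than saline in both drug groups, 3 of 5 at an unadjusted p under 0.05 in limma in each and none past the threshold, and Aqp4 was listed at 0. Their part in the metallothionein values was not tested. The difference of the CVAD response between the days was 1.21 ± 0.36 for Mt2 and 0.56 ± 0.17 for Mt1 (SE, limma adjusted p = 0.211 for Mt2 and 0.21 for Mt1). With a term for the libraries numbered 1 to 8, which are 8 of the 9 drug libraries of day 2, it was 0.31 for Mt1 (limma adjusted p = 1). The saline groups overlapped between the days: Mt2 averaged 38.8 ± 8.46 TPM in saline ganglia on day 8 and 61.4 ± 22.1 TPM on day 2 (SD, n = 3 each), a log2 difference of -0.61 ± 0.25 (SE, limma adjusted p = 0.646) that was -0.349 without the third saline replicate of day 2. Day and any batch of collection cannot be told apart.

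Neutrophil genes were low in the CVAD ganglia of day 8, with a marker sum of 57.0 to 85.8 TPM against 199.5 to 332.6 TPM in saline ganglia, and 94.6 to 224.7 TPM in vincristine ganglia. Their part in the metallothionein values was not tested. Summed skeletal muscle markers overlapped between the groups, at 184.0 to 565.6 TPM in CVAD ganglia and 18.6 to 515.6 TPM in saline ganglia, and with the muscle markers as a covariate no member passed either.

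Pdk4 (ENSMUSG00000019577, chromosome 6) encodes a kinase that holds back pyruvate dehydrogenase and is abundant in muscle and fat. It had the lowest mean of the 10, 18.7 TPM, over 7.88 to 50.7 TPM. In vincristine ganglia on day 8 it was at 17.8, 39.5 and 19.2 TPM, against 15.6, 15.97 and 12.4 TPM in saline ganglia, without overlap, as for 3.46% of all genes. The log2 fold change was 0.68 with a 95% interval of -0.29 to 1.64. Its highest library, the third saline replicate of day 2 at 50.7 TPM, had the highest muscle marker sum, 1205 TPM, and the library with the least of these, the first cyclophosphamide replicate of day 8 at 9.68 TPM, had 8.00 TPM of Pdk4. Over the 30 libraries Pdk4 and the mean of the muscle markers correlated at a Pearson r of 0.725 (permutation p = 2e-05) and a Spearman rho of 0.785 (permutation p = 1e-05, the smallest 100000 resamples can give). Its r was 0.823 within day 2 and 0.633 within day 8, and 0.731 without the 2 libraries farthest from the median of the muscle markers.

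With the CVAD and dexamethasone groups joined, the members again did not separate by the drug. CVAD was taken from its name to include dexamethasone, and in it the other drugs cannot be told apart from dexamethasone. On day 2 the 6 libraries with dexamethasone were set against 6 without, and on day 8 the 6 with were set against 12 without. Fkbp5 had a lowest, median and highest level of 43.4, 53.8 and 90.2 TPM with dexamethasone on day 2, against 45.5, 55.4 and 96.5 TPM without. On day 8 these were 42.1, 57.9 and 100.3 TPM with, against 46.8, 52.8 and 84.3 TPM without. The exact 2-sided permutation test over libraries gave p = 0.745 on day 2 and p = 0.437 on day 8 for Fkbp5. Of all members the smallest exact permutation p was 0.0952 on day 2, for Nr3c1 (mean log2 difference 0.12), and 0.205 on day 8, for Mt2 (mean log2 difference 0.31), before any correction over the 10 members. For Mt2 the lowest, median and highest levels on day 8 were 36.9, 50.7 and 97.0 TPM with dexamethasone, against 29.7, 45.8 and 71.6 TPM without. On day 8 the limma estimate of all 10 members was positive, as for 54.2% of all genes. The members' median was 0.11 in log2, against 0.01 over all genes, and their levels move together. Dexamethasone alone did not share this direction in all of them. Against saline on day 8 its log2 fold change was negative for Fkbp5 (-0.19), Sgk1 (-0.20), Tsc22d3 (-0.14), Zbtb16 (-0.09), Klf9 (-0.06) and Mt1 (-0.05). It was positive for Nr3c1 (0.07), Dusp1 (0.02), Mt2 (0.07) and Pdk4 (0.27). CVAD against saline on that day was positive for every member but Dusp1 (-0.008).

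Several members varied strongly between libraries of the same group. The standard deviation of log2(TPM + 1) within groups was 0.789 for Zbtb16, larger than that of 99.4% of the 13262 tested genes with a mean of at least 10 TPM. It was 0.394 for Sgk1 (96.8% of genes lower), 0.343 for Fkbp5 (95.3%), 0.338 for Mt2 (95.2%) and 0.626 for Pdk4 (98.9%), against a median of 0.142 over those genes. For Nr3c1 it was 0.145 and for Mt1 0.151. Differences between the 10 groups took up 63.2% of the variation of Mt2 and 58.9% of that of Mt1, against 32.1% for Zbtb16, 36.7% for Fkbp5 and 27.04% for the median gene. In the order of the 10 group means of each member, only 1 of 90 neighbouring pairs differed by more than the larger SD of the 2 groups, dexamethasone and doxorubicin on day 8 for Zbtb16.

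The high libraries were largely shared. The 8 libraries with the most Zbtb16 were the first CVAD replicate and the third saline replicate of day 2, and on day 8 the first and second CVAD, the third cyclophosphamide, the first and second vincristine and the third saline replicate. These same 8 libraries had the most Fkbp5, and they made up 7 of the 8 highest for Klf9, 7 for Mt2, 6 for Tsc22d3, 6 for Sgk1, 6 for Mt1 and 4 for Pdk4. For Nr3c1 and for Dusp1 the count was 0. The number 8 was taken after the values were seen, as a gap lay between 32.7 and 27.2 TPM of Zbtb16. Wider gaps lay between 55.2 and 44.6 TPM and between 42.4 and 32.7 TPM, so the cut is arbitrary. With a cut at 42.4 TPM the sets of Zbtb16 and Fkbp5 would differ. The third saline replicate of day 8 ranked 8 for Zbtb16 and 6 for Fkbp5. In library numbers these are 1, 12 to 14, 18 to 20 and 30, and whether the numbers follow the order of collection or preparation is not given in the sources used here.

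**Figure D3:**
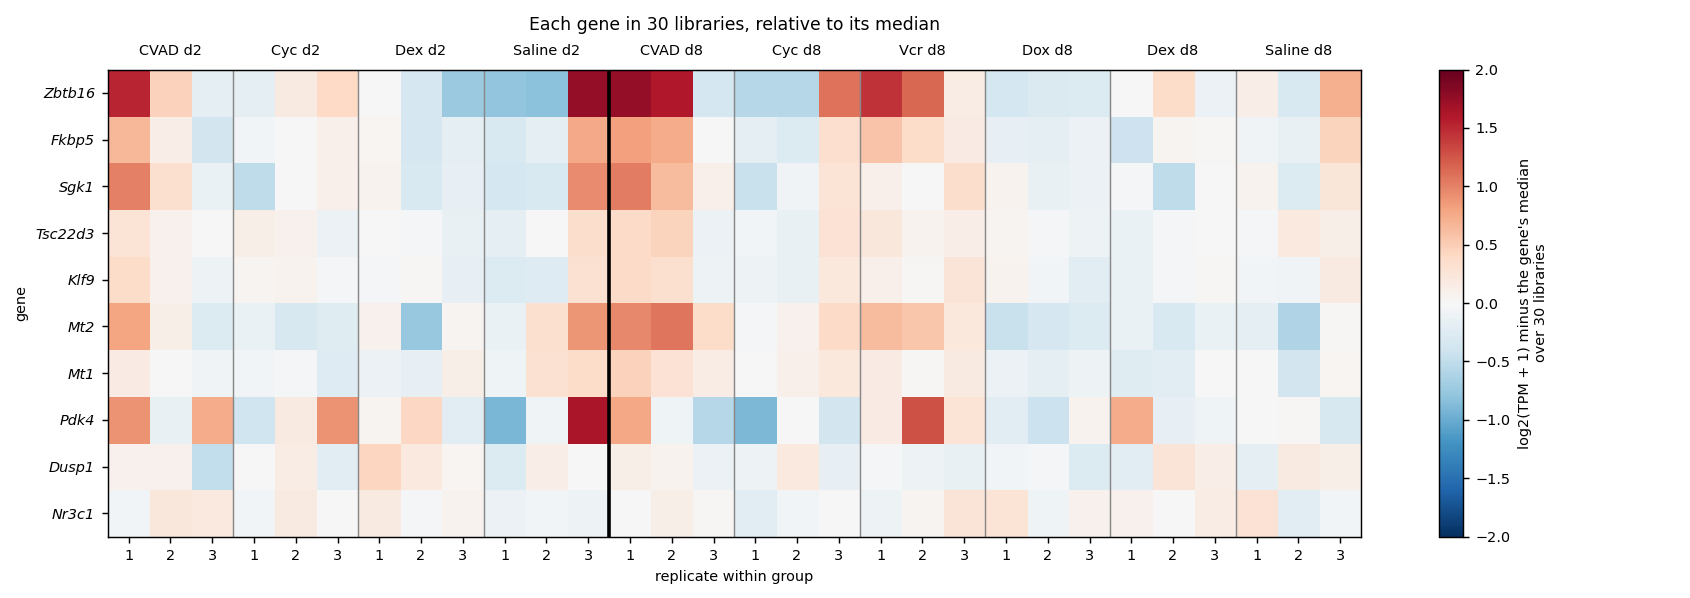
Each gene (rows) in each of the 30 libraries (columns, by group and replicate), as log2(TPM + 1) minus the gene's median over all libraries, from blue (lower) to red (higher). The black line parts day 2 (left) from day 8 (right), and d2 and d8 stand for the days. Zbtb16, Fkbp5, Sgk1 and Mt2 are darkest in the same columns, among them a saline library of day 2, and the rows of Dusp1 and Nr3c1 are not.

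The relations tested numbered 7, and p-values were adjusted over them. Fkbp5 and Tsc22d3 correlated over the 30 libraries at a Pearson r of 0.834 (permutation p = 1e-05, adjusted 2.8e-05) and a Spearman rho of 0.749 (permutation p = 1e-05, adjusted 2.33e-05). The r was 0.815 within day 2, 0.844 within day 8, 0.773 without the 2 libraries farthest from the median of Fkbp5, and 0.773 for deviations from the group means. Fkbp5 and its receptor gene Nr3c1 did not correlate detectably, at an r of -0.084 (permutation p = 0.66) and a rho of 0.012 (permutation p = 0.95). Mt1 and Mt2 correlated at an r of 0.857 (permutation p = 1e-05, adjusted 2.8e-05) and a rho of 0.845 (permutation p = 1e-05, adjusted 2.33e-05). Their r was 0.813 within day 2, 0.884 within day 8, 0.818 without the 2 libraries farthest from the median of Mt1, and 0.694 for deviations from the group means. All libraries were read from 1 table on 1 scale, so a shift of a whole library would also move genes together.

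Per1, a circadian clock gene that glucocorticoids induce directly, moved with these targets. It correlated with Fkbp5 at an r of 0.737 (permutation p = 2e-05, adjusted 2.8e-05) and a rho of 0.609 (permutation p = 0.00065, adjusted 0.000758). With Klf9 its r was 0.745 (permutation p = 2e-05, adjusted 2.8e-05) and its rho 0.684 (permutation p = 4e-05, adjusted 7e-05). The r of Fkbp5 and Per1 was 0.906 within day 2, 0.783 within day 8 and 0.664 without the 2 libraries farthest from the median of Fkbp5. The r of Klf9 and Per1 was 0.826 within day 2, 0.832 within day 8 and 0.64 without the 2 libraries farthest from the median of Klf9. Per1 was at 74.7 TPM in the first CVAD library of day 2 and at 57.4 TPM in the third saline library of day 2, with 47.5 TPM as the highest of the other 10 libraries of that day. Dbp, a clock output gene, did not follow the same order: it was at 65.9 TPM in that CVAD library and at 25.7 TPM in that saline library. On day 8 the first and second CVAD libraries had 35.8 and 27.5 TPM of Dbp and the third saline library had 64.7 TPM, although all 3 had high Fkbp5. Per2, another clock gene, was at 17.6 TPM in the first CVAD library of day 2 and 18.6 TPM in the third saline library. The highest of the other 10 libraries of that day had 13.1 TPM of Per2. On day 8 Per2 was at 18.1 and 20.6 TPM in the first and second CVAD libraries. It was at 16.97 TPM in the third CVAD library and 14.9 TPM in the third saline library. The 3 CVAD libraries lay above all dexamethasone libraries of that day, at 9.79, 11.3 and 7.85 TPM, as for 6.78% of all genes. That difference was 0.89 ± 0.22 in log2 (SE, limma adjusted p = 0.383). They also lay above all saline libraries, as for 5.41% of all genes, by 0.76 ± 0.22 (SE, limma adjusted p = 0.423). Ciart, also a clock gene, was at 18.7 and 6.66 TPM in the same CVAD and saline libraries of day 2. The part of the hour of collection in these values was not tested. Dusp1 correlated with Fos, an immediate early gene of neuronal and stress activation, at an r of 0.625 (permutation p = 0.00023, adjusted 0.000268) and a rho of 0.684 (permutation p = 5e-05, adjusted 7e-05). That r was 0.594 within day 2, 0.67 within day 8 and 0.64 without the 2 libraries farthest from the median of Dusp1.

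**Figure D4:**
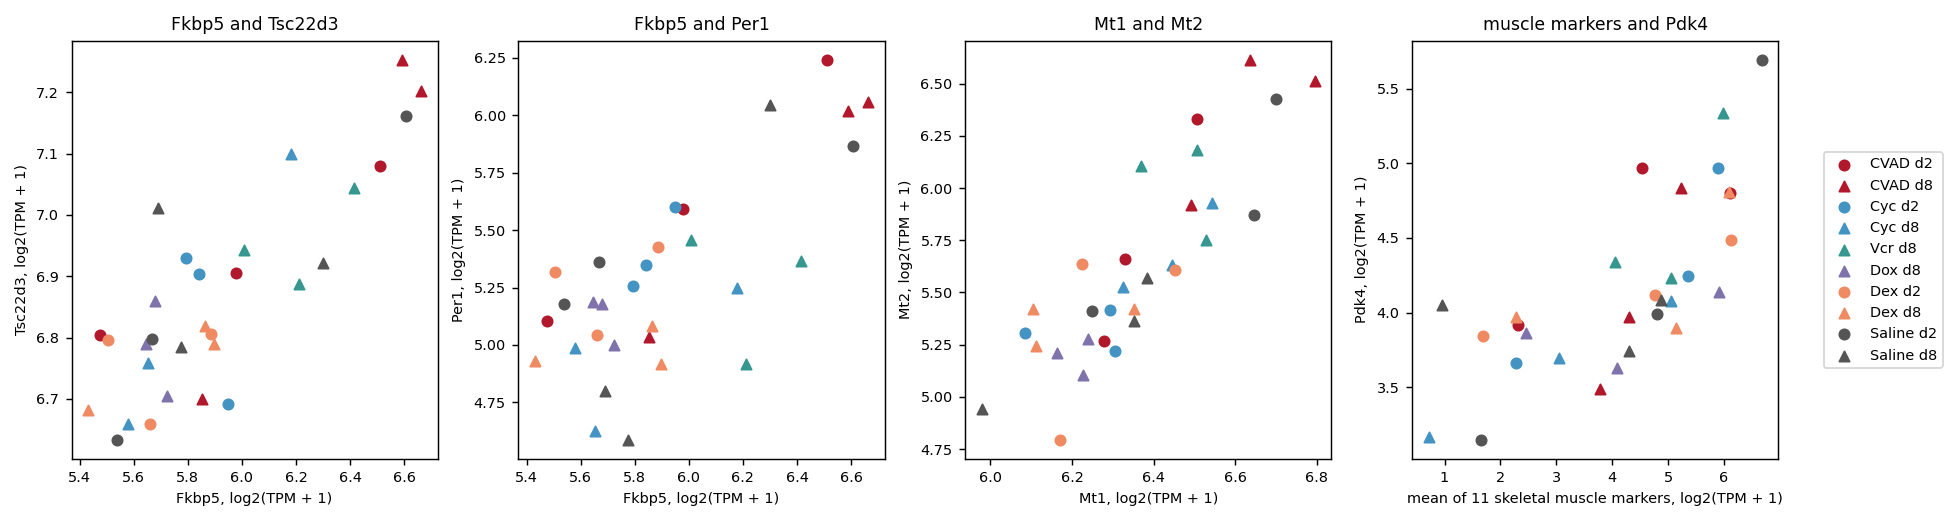
Libraries plotted by 4 pairs of measures, each as log2(TPM + 1): Fkbp5 and Tsc22d3, Fkbp5 and Per1, Mt1 and Mt2, and the mean of 11 skeletal muscle markers and Pdk4. Circles are day 2 and triangles day 8, and colours are drugs (Cyc, cyclophosphamide; Vcr, vincristine; Dox, doxorubicin; Dex, dexamethasone). In the plots of Fkbp5 with Tsc22d3 and of Mt1 with Mt2, CVAD and saline libraries lie together at the upper right, with Pearson r of 0.834 and 0.857.

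Likeness was also ranked over all tested protein-coding genes. It rests on the same libraries and values as the relations above, so it is no separate support for them. Of 15300 genes compared by Pearson r over the 30 libraries, those most like Fkbp5 were Zbtb16 (r = 0.932), Hif3a (0.917), Wee1 (0.856), Mertk (0.853) and Klf9 (0.852). Hif3a, a hypoxia-inducible factor subunit, ranged over 1.41 to 20.5 TPM, Wee1, a cell cycle kinase, over 8.87 to 18.2 TPM, and Mertk, a receptor kinase for the uptake of dying cells, over 19.4 to 43.1 TPM. Those most like Tsc22d3 were Klf9 (0.878), Hif3a (0.877), Ddit4 (0.834), Fkbp5 (0.834) and Zbtb16 (0.825). Those most like Mt2 were F3 (0.884), which encodes tissue factor, Mt1 (0.857), the Krüppel-like factor Klf15 (0.849), the clock gene Per2 (0.833) and Fkbp5 (0.827). Those most like Nr3c1 were Shroom3 (0.851), Sptlc2 (0.848), Sptb (0.839), Myo9b (0.831) and Fzd8 (0.829), with no member among them. Likeness used unscaled TPM, and the part of a shared library scale in it was not tested. For deviations from group means, the 20 values ranged over 0.694, for Mt2 with Mt1, to 0.948, for Fkbp5 with Hif3a.

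The other genes of the pathway gave few differences. Of 22 tested genes of the receptor's machinery (chaperones, steroid-converting enzymes, exporters and cofactors), 31 other genes known to be induced and 11 known to be repressed by glucocorticoids, none passed the threshold in any of the 15 comparisons. At an unadjusted p under 0.05 dexamethasone against saline had 0, 0 and 1 of these lists on day 2 and 0, 0 and 0 on day 8. The induced list had a median log2 fold change of -0.04 on both days with dexamethasone, against 0.06 over all genes on day 2 and -0.02 on day 8. The 1 gene on day 2 was Ccl5, of the repressed list, which was higher with dexamethasone. It was at 2.92, 3.22 and 4.41 TPM, against 0, 0.53 and 2.44 TPM in saline ganglia, a separation shown by 7.03% of all genes. In the induced list the 3 of smallest p on day 2 were Cebpb (-0.33 ± 0.22), Gjb6 (-0.51 ± 0.42) and Cdkn1c (0.22 ± 0.18, log2 fold change ± SE). On day 8 they were Arrdc2 (-0.28 ± 0.19), Arrdc3 (0.15 ± 0.11) and Gjb6 (0.52 ± 0.42).

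In CVAD ganglia 27 of 31 induced genes were higher than saline on day 2 (median 0.12 in log2, with 65.9% of all genes higher and a median of 0.07) and 25 of 31 on day 8 (median 0.19, with 54.2% higher and a median of 0.02). At an unadjusted p under 0.05, limma gave 1 of them on day 2 and 3 on day 8. On day 2 this was Anxa1, which encodes the anti-inflammatory protein annexin A1, at 43.2, 58.0 and 38.0 TPM in CVAD ganglia against 31.2, 33.6 and 41.7 TPM in saline ganglia (limma adjusted p = 0.592). On day 8 the gene of smallest p ran against the others. Lcn2, an iron-binding protein of neutrophil granules that glucocorticoids and inflammation induce, was at 22.9, 16.2 and 16.9 TPM in CVAD ganglia, against 56.7, 52.8 and 64.5 TPM in saline ganglia. Its log2 fold change was -1.595 ± 0.38 (SE, limma adjusted p = 0.222). Arrdc3 and Fam107a followed, at 0.27 ± 0.11 and 0.68 ± 0.32 (log2 fold change ± SE). Per1 was at 65.6, 63.7 and 31.7 TPM in CVAD ganglia on day 8, against 29.5, 29.2 and 32.8 TPM in dexamethasone ganglia (limma adjusted p = 0.948). The groups overlapped, with 2 CVAD libraries high and the other inside the dexamethasone range.

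Of the repressed genes, Mmp9, a matrix protease of neutrophils and macrophages, was at 12.5, 9.39 and 5.15 TPM in CVAD ganglia on day 8, against 23.3, 23.6 and 21.5 TPM in saline ganglia (log2 fold change -1.32 ± 0.32 (SE), limma adjusted p = 0.222). On day 2 it was at 23.85, 27.85 and 18.95 TPM in CVAD ganglia, against 8.41, 11.5 and 18.1 TPM in saline ganglia, without overlap in the other direction (0.89 ± 0.32 (SE), limma adjusted p = 0.402). The difference between these responses was -2.21 ± 0.45 in log2 (SE, limma adjusted p = 0.0521), short of the threshold. With the term for libraries 1 to 8, whose size rests on the third dexamethasone replicate of day 2, it was -1.28. Il1b, an inflammatory cytokine, was listed at 0.80, 0 and 0 TPM in CVAD ganglia on day 8, against 2.73, 3.87 and 2.99 TPM in saline ganglia. Ptgs2, the inducible cyclooxygenase, was at 1.69, 1.68 and 1.71 TPM in CVAD ganglia against 0.78, 0.81 and 1.06 TPM in saline ganglia (0.52 ± 0.22 (SE), limma adjusted p = 0.761). Neutrophil markers shared the direction of Mmp9 and Lcn2 on both days, Lcn2 being at 0.45 ± 0.38 on day 2 (log2 fold change ± SE). Il1b was at 0.17 ± 0.57 on day 2. Ptgs2, at -0.23 ± 0.22 on day 2, went the other way on both days. The neutrophil marker sum was 142.0 to 274.5 TPM in CVAD ganglia on day 2, against 87.2 to 146.0 TPM in saline ganglia. All 6 tested were higher (median log2 fold change 0.76, 3 of 6 at an unadjusted p under 0.05 in limma). On day 8, with the sums given above, all 6 were lower (median -1.90, 6 of 6 at that level). In the difference of the CVAD response between days 4 of the 6 passed the adjusted threshold (median -2.78). The part of these cells in Lcn2, Mmp9 and Il1b was not tested.

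Of the machinery, Hsd11b1, the enzyme that regenerates active corticosterone within cells, was at 7.63, 3.31 and 3.96 TPM in CVAD ganglia on day 2 and at 6.03, 3.39 and 2.998 TPM in dexamethasone ganglia, against 1.51, 4.44 and 1.21 TPM in saline ganglia. The groups overlapped, at 0.87 ± 0.38 for CVAD and 0.68 ± 0.38 for dexamethasone (log2 fold change ± SE, limma adjusted p = 0.548 and 0.929). The chaperone gene Hsp90aa1 was at 314.0, 328.6 and 331.4 TPM in CVAD ganglia on day 8, against 296.6, 317.4 and 271.7 TPM in saline ganglia (0.14 ± 0.09 (SE), limma adjusted p = 0.926). Ep300, a histone acetyltransferase that coactivates the receptor, was at 73.4, 69.8 and 65.6 TPM in CVAD ganglia on day 8, against 55.3, 61.0 and 62.1 TPM in dexamethasone ganglia, without overlap (0.22 ± 0.08 (SE), limma adjusted p = 0.84). Over all genes, the smallest p-values for groups with dexamethasone against groups without belonged on day 2 to ENSMUSG00002075948, Zfp90 and Gm9276 (limma adjusted p = 0.56 each), and on day 8 to Gm22192, Rmrp and Pradc1 (limma adjusted p = 0.816, 0.816 and 1), none of which is in these lists.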

How the data were processed

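Per the labels' protocols, total RNA of the ganglia was depleted of ribosomal RNA and made into stranded libraries. Tools listed in the submitters' processing notes are StringTie 2.2.1, STAR 2.7.10b and FastQC 0.12.1. The notes also list GRCm39 and mm10, and which build served which step is not given in the sources used here. The authors deposited TPM per gene, already scaled to a common total, so depth per library is unknown and no counting error was computed. Gene coordinates are printed as deposited. They are not those of GRCm38.p6, with which 1.05% of 21193 coding genes share a start or end, and promoters were taken from RefSeq tables of GRCm38.p6 by symbol.

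Libraries were grouped by the labels. In limma 3.58.1 (R 4.3.3), 1 mean per group was fitted to log2(TPM + 1) of 25434 genes over all 30 libraries, with a trended variance. P-values were 2-sided and Benjamini-Hochberg adjusted over genes, with a threshold of 0.05. Adding 1 understates changes of low genes. Pathway genes named are of the 3 of smallest p in each list and comparison. The per-library clock values and the 8 highest Zbtb16 libraries were chosen after their values were seen. Members, lists, pairs and tests were chosen with earlier results of these data known. Relations used 100000 permutations (numpy 2.4.6). The steps were tested on simulated data.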

Additional observations from a re-analysis of the deposited data

Results flagged for a closer look

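Mt1 with CVAD, and Mt1 and Mt2 with cyclophosphamide, stood on opposite sides of the saline mean on the 2 days in every library. The mean is that of the day in log2(TPM + 1). Of these, only Mt1 in CVAD ganglia on day 8 lay wholly outside the saline libraries, and the others overlapped them. The pattern did not hold for Mt2 with CVAD or for either gene with dexamethasone. Mt1 in CVAD ganglia was 0.40 above saline on day 8 and -0.16 from it on day 2, a difference of 0.565 in log2. That difference was tested in limma and did not pass (adjusted p = 0.21). Mt1 in cyclophosphamide ganglia was at 0.20 on day 8 and -0.305 on day 2, a difference of 0.505. Mt2 in cyclophosphamide ganglia was at 0.41 on day 8 and -0.59 on day 2, a difference of 0.995. The differences for cyclophosphamide were not tested. With a term for the libraries numbered 1 to 8, all of day 2, the cyclophosphamide value of day 2 was -0.05 for Mt1 and -0.2 for Mt2. The CVAD difference of Mt1 was 0.31 with that term. It is estimated within the dexamethasone group of day 2 alone, from the third replicate against the first and second. These values thus rest on that replicate and cannot tell a batch from the drugs. The 2 days have separate saline groups, whose Mt2 averaged 38.8 TPM on day 8 and 61.4 TPM on day 2, so the saline libraries enter each of these values.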

How the results depend on the processing

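The count of members past the threshold was 0 in all 15 comparisons under all 237 alternatives: 8 other settings (an added constant of 0.1, no filter, median-ratio scaling, a model per day, library quality weights, a fit to coding genes, a covariate for the first 8 library numbers, and one for muscle markers) and each library left out in turn. The smallest adjusted p of a member in any of them was 0.0665, for Mt2 in CVAD against saline on day 8 with a model per day, in a range of 0.0665 to 0.701 over its alternatives. Its log2 fold change stayed between 0.88 and 1.27. The sign of dexamethasone against saline on day 2 depended on 1 control library. With 1 library left out the log2 fold change ranged over -0.453 to 0.08 for Fkbp5, -0.226 to 0.038 for Tsc22d3, -0.454 to 0.198 for Sgk1 and -0.848 to 0.445 for Zbtb16, each highest without the third saline replicate, and with library quality weights that of Zbtb16 was 0.002. On day 8 Zbtb16 ranged over -0.334 to 0.178, at 0.013 without the third dexamethasone replicate and 0.178 without the third saline replicate. CVAD against saline on day 8 ranged, with 1 library left out, over 0.448 to 1.498 for Zbtb16, 0.355 to 0.817 for Sgk1 and 0.3 to 0.705 for Fkbp5, each lowest without the first and highest without the third CVAD replicate. On day 2 the lowest and highest values over all alternatives were -0.392 and -0.08 for Mt1 with dexamethasone, -0.446 and -0.05 for Mt1 with cyclophosphamide, -0.804 and -0.282 for Mt2 with dexamethasone and -0.835 and -0.2 for Mt2 with cyclophosphamide. The difference of the CVAD response ranged over 0.31 to 0.706 for Mt1 and 0.818 to 1.498 for Mt2. Both were lowest with the covariate for the first 8 library numbers, whose size rests on the third dexamethasone replicate of day 2. The r of Fkbp5 and Nr3c1 was 0.008 without the 2 libraries farthest from the median, and the other relations kept their sign and their side of the threshold in each subset. The adjusted p of Mmp9 ranged over 0.0165 to 1 for the CVAD response between days. It passed in 6 of 19 alternatives: median-ratio scaling, quality weights, coding genes alone and the muscle covariate, and without the third saline replicate of day 2 or the first CVAD replicate of day 8. The cause was not tested. Depth is unknown, so differences of genes near 1 TPM, Il1b, Ptgs2 and Hsd11b1 among them, cannot be weighed against counting error. No paired analysis was possible because replicate numbers were given in accession order and pair no libraries.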
